A study of Mus musculus with 12 samples.

Results

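Aminoacyl-tRNA synthetases join each amino acid to its tRNA, the step that sets which amino acid a codon is read as. Mammalian cells keep 2 sets of these enzymes, both encoded in the nucleus. A cytosolic set serves the ribosomes of the cytoplasm, and a mitochondrial set is imported to serve the ribosomes that make the respiratory chain subunits encoded by mitochondrial DNA. Brown fat is rich in mitochondria and burns fuel to make heat, and several cytosolic synthetase genes are known targets of ATF4, the transcription factor of the integrated stress response. The 35 synthetase genes described here were given as a list of symbols, out of 54356 annotated genes in the files. There were 17 cytosolic enzymes or subunits, 16 mitochondrial enzymes, and 2 genes, Gars and Kars, that encode the glycine and lysine enzymes of both compartments.

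The tissue was interscapular brown adipose tissue of 12 wild type C57BL/6N male mice aged 20 weeks, 6 labelled cold and 6 labelled ctrl, with 1 library per mouse, named here by group and mouse number. Cold mice spent 24 h alone in a cage at 4 °C before dissection. The same treatment wording is attached to the ctrl mice, and the husbandry wording gives 22 to 24 °C, so how ctrl mice were housed in the last day is not stated, and cold cannot be told apart from single housing if ctrl mice shared cages. The series text speaks of 3 cold mice and the extraction wording of another fat depot. The sample labels, with 6 cold mice and brown fat, were followed. Libraries held 17.0 to 31.4 M estimated reads in cold mice and 16.0 to 26.8 M in ctrl mice. The summed level of 12 brown adipocyte markers was 25497 to 34952 CPM in cold mice and 20097 to 28422 CPM in ctrl mice. CPM are counts scaled by each library's size after TMM normalization. Of the 12 brown adipocyte markers, 5 were called higher, among them Elovl3, Dio2 and Cidea, 1 lower, Adipoq, and 6 were not called. Those 6, with Ucp1 among them at 0.22, had log2 fold changes from -0.52 for Cox8b to 0.23 for Ppara. Fabp4, called higher, and Ucp1 held most of the sum. The summed level of 12 skeletal muscle markers was 193 to 5686 CPM in cold mice and 138 to 1799 CPM in ctrl mice. The summed level of 7 white adipocyte markers was 440 to 633 CPM in cold mice and 107 to 269 CPM in ctrl mice. Of the 5 tested, 1 was called, Npr3, at 464 ± 86.6 CPM in cold mice and 92.0 ± 28.5 CPM in ctrl mice (SD, n = 6 each). Npr3 held most of the mean sum in both groups. The other 4 had log2 fold changes of -1.07 (Lep), -0.38 (Nnat), -0.05 (Hoxc8) and 0.25 (Retn). The summed level of 6 fibroblast and progenitor markers was 174 to 275 CPM in cold mice and 217 to 385 CPM in ctrl mice. Col1a1 and Col3a1 were called lower, and the other 4 were not called, with log2 fold changes from -0.05 to 0.23. The part of other cell types in the synthetase results was not tested beyond muscle. The 12 muscle markers all had positive log2 fold changes, with a median of 1.15, and 0 of them passed the test. With the muscle level as a covariate the counts of changed synthetase genes stayed at 10 and 2. In ctrl 2 reads from Gm42418, a gene that overlaps ribosomal RNA sequence, took 9.94% of the library. In whole tissue, fewer cells of a type and less RNA per cell cannot be told apart.

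In the cold, 10 of the 35 synthetase genes were higher, 2 were lower and 23 did not pass an adjusted p of 0.05 in edgeR's quasi-likelihood test over 13876 genes. Among all genes tested 16.2% were called higher, 15.4% lower and 31.6% either way, so the share of synthetase genes called at all, 34.3%, was near that background. The shares by direction were 28.6% higher and 5.71% lower. The median log2 fold change of the 35 genes was 0.10, against -0.01 for all genes. The 10 higher genes were the mitochondrial Cars2, Sars2, Mars2 and Yars2 and the cytosolic Eprs, Iars, Yars, Dars, Wars and Nars. The lower genes were the mitochondrial Fars2 and Vars2. The 6 cold and 6 ctrl values did not overlap in 9 of the 35 genes, all of them among the 12 called, against 16.3% of all genes tested. Cars2 was 4.33-fold higher, while the other 9 higher genes were 1.19-fold to 1.49-fold higher.

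**Figure D1:**
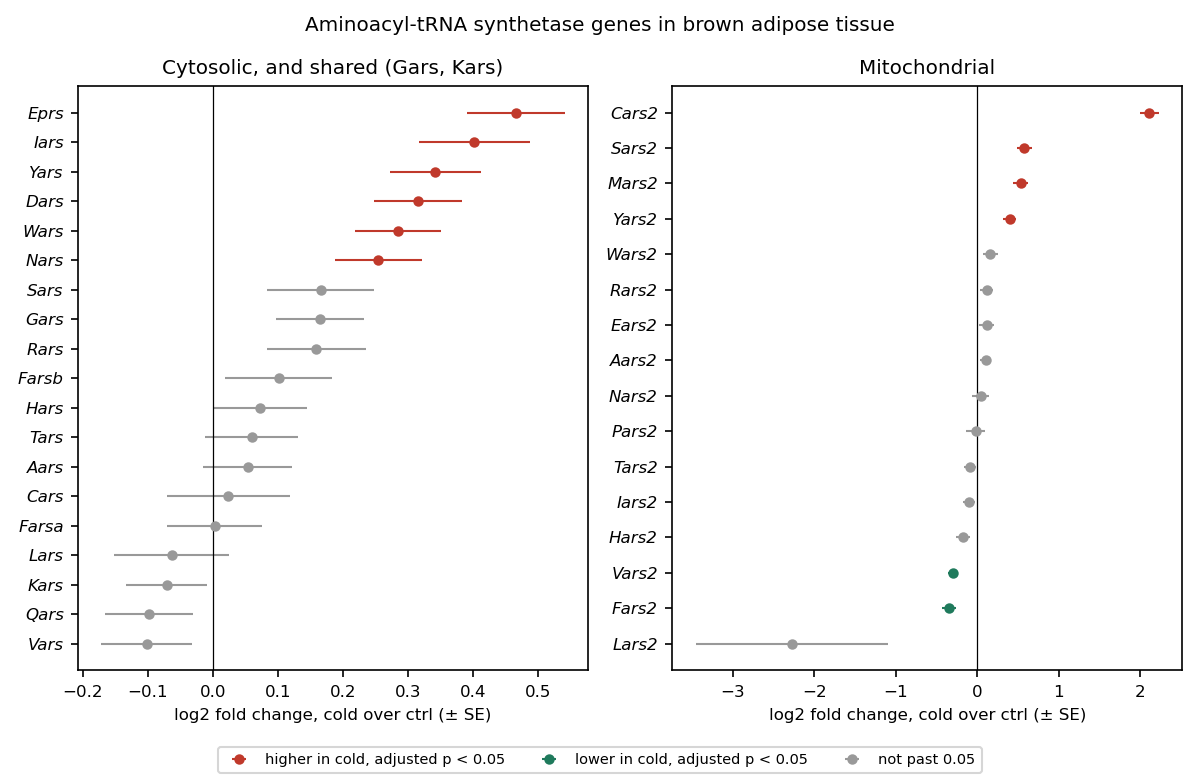
Log2 fold change of cold over ctrl (x axis, points with ± SE) for each synthetase gene (rows), with cytosolic and shared enzymes on the left and mitochondrial enzymes on the right, on different x scales. Cars2 lies at 2.12, every other gene past the threshold lies between -0.35 and 0.58, and Lars2 carries the widest error, 1.18.

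Cars2 encodes the mitochondrial cysteinyl-tRNA synthetase. Its level was 159, 199 and 235 CPM (lowest, median, highest) in cold mice and 39.2, 44.95 and 50.8 CPM in ctrl mice. The groups were far apart, and cold 4, cold 11 and cold 12 lay above the other 3 cold mice. The log2 fold change was 2.12 ± 0.12 (SE, n = 6 and 6; adjusted p = 4.08e-09, edgeR quasi-likelihood), which put Cars2 at rank 8 by p among all genes tested. Its cytosolic counterpart Cars averaged 15.4 ± 1.28 CPM in cold mice and 15.1 ± 1.90 CPM in ctrl mice (SD, n = 6 each), with a log2 fold change of 0.02 ± 0.09 (adjusted p = 0.878). Naxd, a gene on the opposite strand that shares 984 bases with the 3′ end of Cars2, was lower, at 41.4 ± 4.38 CPM in cold mice and 53.8 ± 6.85 CPM in ctrl mice (adjusted p = 5.43e-03). The strand setting of Salmon is not stated.

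Most of the Cars2 reads gained in the cold were assigned to a transcript annotated to nonsense-mediated decay, the pathway that degrades mRNAs with an early stop codon. The gene lies on chromosome 8 of GRCm38, minus strand, bases 11513977 to 11550783, and has 12 annotated transcripts. Cars2-201 encodes the full enzyme, with a coding length of 1656 bases or 552 codons in 15 exons. Cars2-205 also has 15 exons, and 12 of the 13 inner ones have the borders of Cars2-201. Its exon 7 begins 191 bases earlier, inside the intron of Cars2-201 (chr8:11530428-11530618), and is 324 bases long instead of 133. The reading frame meets a stop after 68 bases of this added part, at 226 codons, with 8 exons still to follow. The junctions are shown because they are where the transcripts part, with the last 30 bases of exon 6 in lower case and exon 7 in capitals. For Cars2-205 the capitals run up to the early stop codon TAG.
Cars2-201: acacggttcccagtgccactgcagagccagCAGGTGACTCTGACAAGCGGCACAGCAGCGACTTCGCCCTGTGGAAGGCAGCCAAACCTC
Cars2-205: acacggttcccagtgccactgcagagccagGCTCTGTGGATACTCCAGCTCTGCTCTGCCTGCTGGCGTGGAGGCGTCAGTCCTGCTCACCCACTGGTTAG

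Cars2-205 had 91.9, 114 and 155 CPM in cold mice and 1.98, 5.50 and 16.3 CPM in ctrl mice. No ctrl mouse came near the lowest cold mouse, and ctrl 6 stood above the other ctrl mice. Its log2 fold change was 4.12 ± 0.43 (adjusted p = 1.13e-04, edgeR quasi-likelihood over 30345 transcripts). Cars2-201 had 37.1, 52.4 and 72.6 CPM in cold mice and 23.4, 26.7 and 30.2 CPM in ctrl mice, again without overlap, which was so for 7.72% of all transcripts tested. Its log2 fold change was 1.00 ± 0.16 (adjusted p = 1.46e-03). Cars2-206, a minor transcript also annotated to nonsense-mediated decay, was higher too, at 1.92 ± 0.664 CPM in cold mice and 0.0901 ± 0.122 CPM in ctrl mice (SD, n = 6 each; adjusted p = 5.36e-03). Of the Cars2 reads gained in the cold, Cars2-205 held 71.1% and Cars2-201 held 17.4%. Counted without Cars2-205, a choice made after seeing the data, Cars2 was still higher, with a log2 fold change of 1.08 ± 0.11.

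The other 5 Cars2 transcripts tested did not pass. Cars2-210, a short protein-coding model of 424 bases, had a log2 fold change of 2.64 ± 0.89 (adjusted p = 0.0908), Cars2-211 one of 1.76 ± 0.91, Cars2-202 one of 0.59 ± 0.27, Cars2-209 one of 0.57 ± 0.28 and Cars2-207 one of 0.46 ± 0.31. Cars2-210 had 6.06, 9.12 and 21.8 CPM in cold mice and 0, 2.37 and 3.34 CPM in ctrl mice. Among all transcripts 10.3% were called, with 6.21% higher and 4.06% lower, and 3 of these 8 Cars2 transcripts were called, all higher. With a stricter filter (minimum count 50) the number of Cars2 transcripts called higher was 2. Cars2-206, 1 of the 3, lay near the floor in ctrl mice, at 0 to 0.271 CPM.

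**Figure D2:**
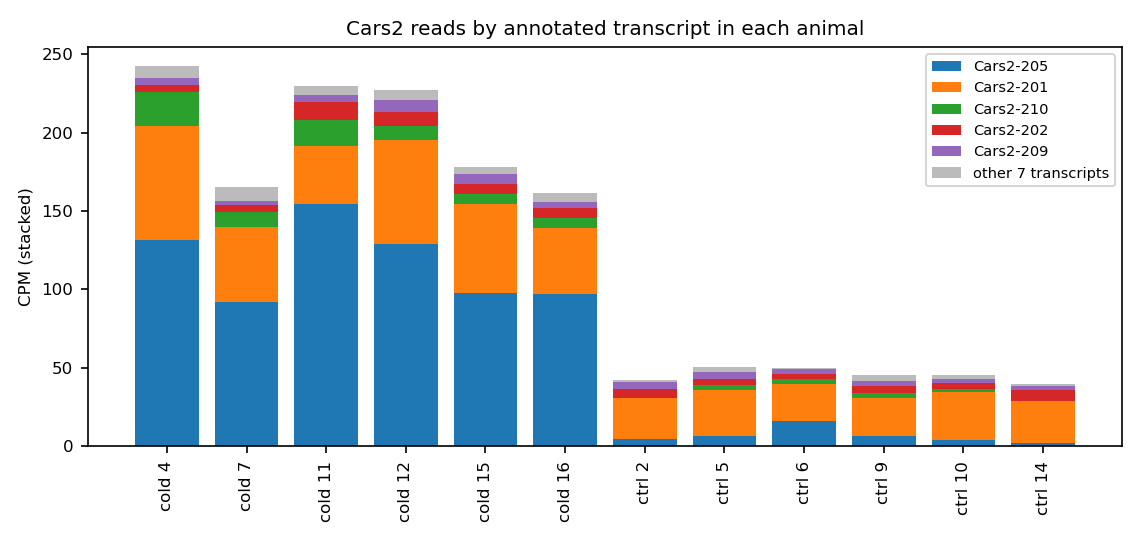
Stacked CPM (y axis) of annotated Cars2 transcripts in each mouse (x axis, 6 cold then 6 ctrl). Cars2-205 takes the largest block in every cold mouse, 91.9 to 155 CPM, and 1.98 to 16.3 CPM in ctrl mice.

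The make-up of Cars2 transcripts also differed between the groups. Usage was taken as the reads per kilobase of annotated length of a transcript, in percent of the sum over its gene. Cars2-205 made up 39.3%, 47.2% and 51.1% of Cars2 in cold mice and 4.42%, 9.86% and 24.7% in ctrl mice (lowest, median, highest). Cars2-201 made up 12.9%, 23.5% and 28.6% in cold mice and 37.4%, 51.0% and 63.8% in ctrl mice. Neither pair of ranges overlapped. Of the reads assigned to Cars2, 32.6% came from transcripts annotated as protein-coding in cold mice and 63.3% in ctrl mice. These transcripts include the short Cars2-210, with a coding length of 384 bases. Its usage was 13.7%, 18.25% and 30.8% in cold mice and 0%, 17.9% and 23.9% in ctrl mice, with overlapping ranges. The edgeR usage test over 7233 genes called 1.23% of them, and Cars2 had an adjusted p of 1.93e-07, rank 5 by p. limma's diffSplice gave Cars2 an adjusted p of 5.3e-12. Cars2 was the one gene called among the 27 synthetase genes in the usage test. On simulated counts the edgeR usage test made more false calls than its threshold allows, so single calls near that threshold carry less weight. It found 57.1% of simulated 4-fold changes of 1 transcript, 23% of 2-fold and 1.45% of 1.5-fold ones. Genes not called may therefore hold shifts that it missed. Salmon shares reads out among annotated transcripts alone, so reads of an unlisted transcript that keeps the added part of exon 7 would count towards Cars2-205.

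For Lars2, the mitochondrial leucyl-tRNA synthetase, 1 transcript and 1 library set the summed count. Its level was 277, 426 and 1600 CPM in cold mice and 313, 569 and 17386 CPM in ctrl mice, with the highest value in ctrl 2. The log2 fold change was -2.28 ± 1.18 (adjusted p = 0.177), and without ctrl 2 it was 0.42 ± 0.52. Reads of Lars2 fell mainly on Lars2-209, a transcript annotated to nonsense-mediated decay, which took 56.0% to 93.6% of them in cold mice and 70.0% to 99.2% in ctrl mice. Lars2-209 had 157, 294 and 1514 CPM in cold mice and 218, 464 and 17050 CPM in ctrl mice, with a log2 fold change of -2.46 ± 1.21 (adjusted p = 0.277). The groups overlapped widely.

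Across the 12 libraries Lars2-209 moved with Gm42418. The level of Gm42418 was 848 to 13884 CPM in cold mice and 1042 to 116023 CPM in ctrl mice. On log2(CPM + 1) values Pearson's r was 0.976 (permutation p = 4e-05, adjusted over 2 relations 8e-05) and Spearman's rho 0.916 (p = 1.4e-04, adjusted 2.8e-04; permutation test, n = 12). Without ctrl 2 and cold 12, the libraries farthest from the median of Gm42418, r was 0.891 (permutation p = 8.8e-04, n = 10). Within cold mice r was 0.960 (exact permutation p = 0.00556) and within ctrl mice 0.994 (exact permutation p = 0.00833). Lars2-201, the transcript of the full enzyme, gave an r of 0.0989 (permutation p = 0.777) and a rho of -0.105 (permutation p = 0.749). This pooled value joined opposite signs, with r at -0.599 within cold mice (exact permutation p = 0.228) and 0.758 within ctrl mice (exact permutation p = 0.0861), neither past 0.05.

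Lars2-201 kept to a narrow range in all 12 libraries. It had 83.8, 121 and 148 CPM in cold mice and 91.9, 107 and 130 CPM in ctrl mice, with overlapping groups and a log2 fold change of 0.12 ± 0.13 (adjusted p = 0.715). Lars2-209 has 4 of its 21 exons with borders other than in Lars2-201, so 35 of its 3726 stretches of 31 bases are not in Lars2-201. In its last exon it shares 26 stretches of 31 bases with AA474408 and 22 with the antisense gene Gm15564, between its bases 3032 and 3189. That exon has the same start in Lars2-201 and ends 2 bases earlier there, so these shared stretches are in Lars2-201 too. Both genes had their highest read numbers in ctrl 2, 48749 for AA474408 and 5183 for Gm15564. The part that ribosomal RNA reads or these shared stretches played in the Lars2 sum was not tested.

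**Figure D3:**
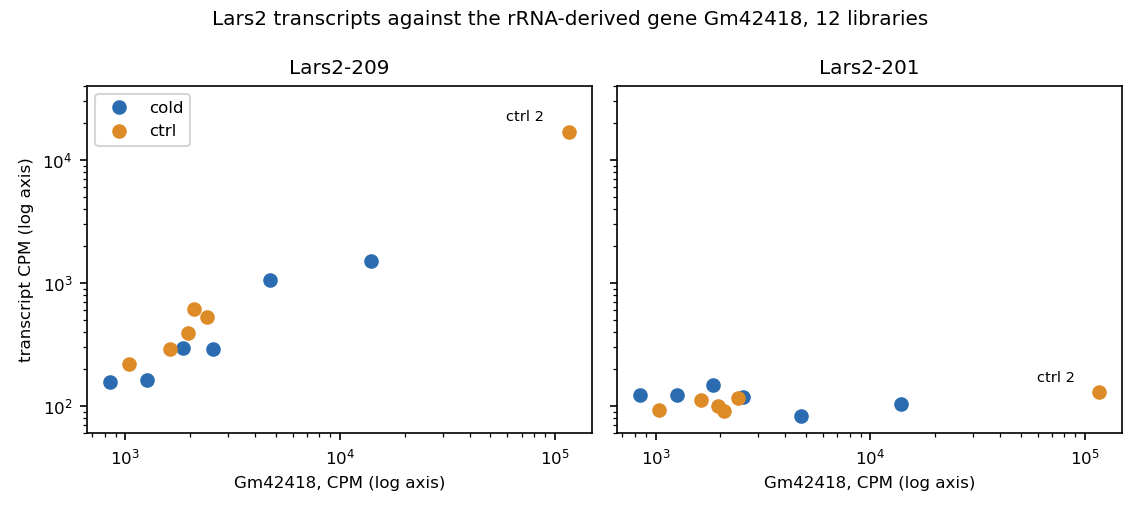
CPM of Lars2-209 (left) and Lars2-201 (right) on the y axis against CPM of Gm42418 on the x axis, both on log axes, 1 point per library. Lars2-209 climbs along Gm42418 up to 17050 CPM in ctrl 2, whereas Lars2-201 stays between 83.8 and 148 CPM.

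Among the cytosolic enzymes, 6 of 17 genes were higher in the cold and 0 were lower, with a median log2 fold change of 0.10. The 35.3% called lay near the background of 31.6%, made up of 16.2% higher and 15.4% lower. The log2 fold changes of the 11 others ranged from -0.10 for Vars to 0.17 for Sars. Eprs encodes the bifunctional enzyme that charges both glutamate and proline tRNAs. It had 108, 119 and 137 CPM in cold mice and 77.8, 86.5 and 97.2 CPM in ctrl mice, without overlap (log2 fold change 0.47 ± 0.08, adjusted p = 1.79e-04).

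Iars, the isoleucine enzyme, had 36.97, 43.1 and 48.2 CPM in cold mice and 27.9, 33.2 and 37.3 CPM in ctrl mice. The lowest cold mouse lay just under the highest ctrl mouse, and the log2 fold change was 0.40 ± 0.09 (adjusted p = 1.73e-03). Yars, the tyrosine enzyme, had 51.8, 54.3 and 60.7 CPM in cold mice and 39.1, 43.5 and 46.7 CPM in ctrl mice (log2 fold change 0.34 ± 0.07, adjusted p = 1.30e-03). Every cold mouse exceeded every ctrl mouse for Yars. Dars, the aspartate enzyme, had 44.8, 48.5 and 49.9 CPM in cold mice and 35.4, 37.6 and 43.4 CPM in ctrl mice (log2 fold change 0.32 ± 0.07, adjusted p = 1.87e-03). The ranges of Dars did not overlap either.

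Wars, the tryptophan enzyme, had 70.9, 74.6 and 76.9 CPM in cold mice and 53.7, 61.9 and 68.9 CPM in ctrl mice (log2 fold change 0.29 ± 0.07, adjusted p = 3.60e-03). Its groups were separate by a narrow margin. Nars, the asparagine enzyme, had 70.1, 79.5 and 84.0 CPM in cold mice and 60.5, 65.3 and 70.3 CPM in ctrl mice (log2 fold change 0.26 ± 0.07, adjusted p = 8.21e-03). Its lowest cold value lay just under its highest ctrl value, and counted over protein-coding transcripts alone it did not pass (log2 fold change 0.25 ± 0.13, adjusted p = 0.153). Of the 35 genes, 18 overlap another annotated gene and 10 a protein-coding one. Wars and Yars share their ends with opposite-strand genes that were higher in the cold. Wdr25, which shares 544 bases with Wars, was at 10.5 ± 0.967 CPM in cold mice and 5.25 ± 0.527 CPM in ctrl mice, and C77080, which shares 30 bases with Yars, at 15.1 ± 1.33 CPM in cold mice and 8.44 ± 1.22 CPM in ctrl mice (SD, n = 6 each).

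The 11 cytosolic genes not called covered alanine (Aars), cysteine (Cars), phenylalanine (the subunits Farsa and Farsb), histidine (Hars), leucine (Lars), glutamine (Qars), arginine (Rars), serine (Sars), threonine (Tars) and valine (Vars). Farsa and Farsb, the subunits of 1 enzyme, had log2 fold changes of 0.00 ± 0.07 and 0.10 ± 0.08. Qars stood apart in its make-up, since transcripts annotated as protein-coding held 19.5% of its reads in cold mice and 15.3% in ctrl mice. Its summed level was 42.6 ± 1.41 CPM in cold mice and 45.7 ± 3.67 CPM in ctrl mice (SD, n = 6 each; adjusted p = 0.301). Gars, the most abundant of the 19 cytosolic and shared genes, was at 168 ± 4.95 CPM in cold mice and 150 ± 11.5 CPM in ctrl mice, with a log2 fold change of 0.17 ± 0.07 (adjusted p = 0.0749). Kars had a log2 fold change of -0.07 ± 0.06 (adjusted p = 0.428).

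In mammals several synthetases are held together in the multisynthetase complex, a grouping added here after the values were seen. Among the 35 genes, 7 encode enzymes of the complex, and of these, Dars, Eprs, Iars, Kars, Lars, Qars and Rars, 3 were higher and 0 lower. Mars, the methionine enzyme of the complex, was outside the given list, at 50.3 ± 4.02 CPM in cold mice and 56.4 ± 2.59 CPM in ctrl mice (log2 fold change -0.17 ± 0.07, adjusted p = 0.0772). Of the 11 listed cytosolic genes outside the complex, 3 were higher and 0 lower. The shares called higher, 42.9% in the complex and 27.3% outside it, rest on few genes. Among all genes tested 16.2% were called higher and 15.4% lower. Of the 3 scaffold proteins of the complex, Eef1e1 was higher, at 12.4 ± 0.918 CPM in cold mice and 7.73 ± 1.27 CPM in ctrl mice (log2 fold change 0.68 ± 0.11, adjusted p = 1.87e-04). Aimp1 and Aimp2, the other scaffolds, had log2 fold changes of 0.22 ± 0.11 and 0.18 ± 0.11 and did not pass.

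**Figure D4:**
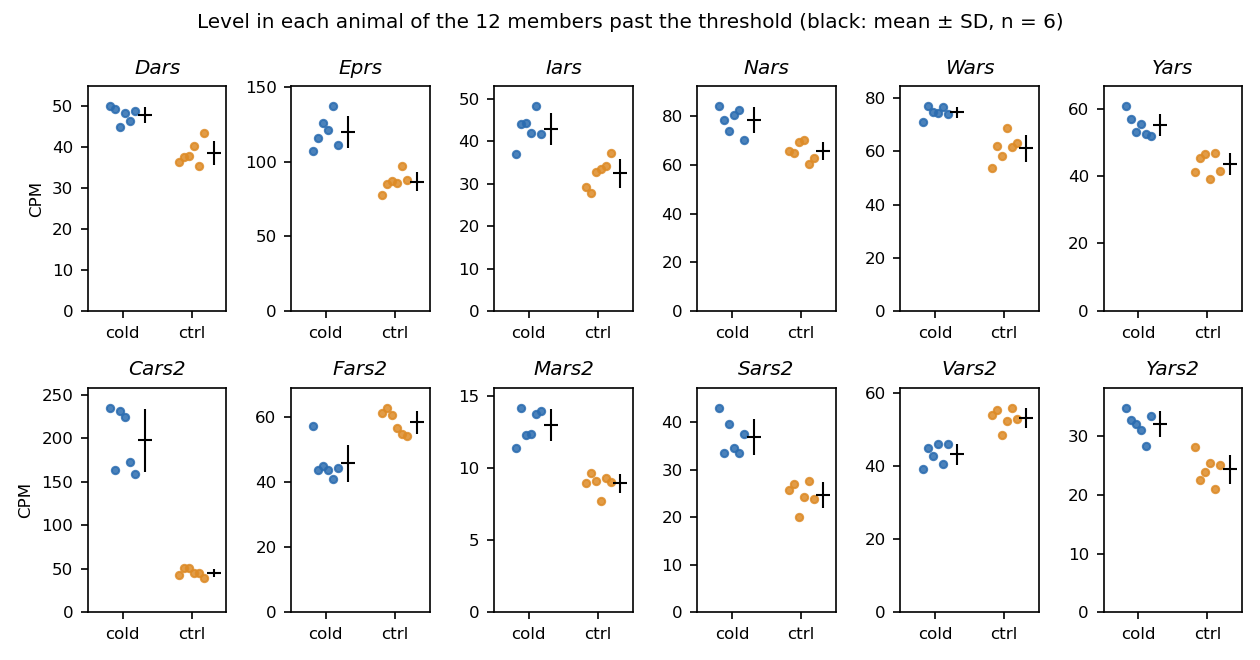
CPM in each mouse (y axis, from 0; points, cold left and ctrl right, with the mean ± SD in black, n = 6 each) for the 12 synthetase genes past the threshold. Iars, Nars and Fars2 are the 3 genes whose cold and ctrl points overlap.

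Of the 16 mitochondrial enzymes, 4 were higher, 2 lower and 10 not called, so 37.5% were called, against 31.6% of all genes. Their median log2 fold change was 0.07, or 0.10 without Lars2. Sars2, the mitochondrial serine enzyme, had 33.6, 36.1 and 43.01 CPM in cold mice and 20.1, 25.0 and 27.7 CPM in ctrl mice (log2 fold change 0.58 ± 0.09, adjusted p = 1.44e-04). Mars2, the mitochondrial methionine enzyme, was scarcer, at 11.4, 13.0 and 14.2 CPM in cold mice and 7.70, 9.06 and 9.63 CPM in ctrl mice (log2 fold change 0.53 ± 0.09, adjusted p = 2.76e-04). Neither Sars2 nor Mars2 had a ctrl mouse that reached the lowest cold mouse. Yars2, the mitochondrial tyrosine enzyme, had 28.3, 32.3 and 34.7 CPM in cold mice and 20.9, 24.5 and 28.0 CPM in ctrl mice (log2 fold change 0.40 ± 0.08, adjusted p = 1.33e-03), with a narrow gap between the groups.

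Fars2, the mitochondrial phenylalanine enzyme, was lower, at 40.8, 44.02 and 57.1 CPM in cold mice and 54.1, 58.6 and 62.7 CPM in ctrl mice (log2 fold change -0.35 ± 0.08, adjusted p = 3.79e-03). Cold 4 lay inside the ctrl range and the other 5 cold mice below it. Vars2, the mitochondrial valine enzyme, had 39.3, 43.9 and 46.2 CPM in cold mice and 48.5, 53.6 and 56.0 CPM in ctrl mice (log2 fold change -0.30 ± 0.07, adjusted p = 2.69e-03). All cold mice were under all ctrl mice for Vars2, but it did not pass with library totals as scaling (adjusted p = 0.0672) or over protein-coding transcripts alone (adjusted p = 0.156).

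The 10 mitochondrial genes not called were Aars2, Ears2, Hars2, Iars2, Lars2, Nars2, Pars2, Rars2, Tars2 and Wars2, for alanine, glutamate, histidine, isoleucine, leucine, asparagine, proline, arginine, threonine and tryptophan. Apart from Lars2 their log2 fold changes ran from -0.18 ± 0.08 for Hars2 to 0.16 ± 0.10 for Wars2. Iars2, the most abundant of them after Lars2, was at 164 ± 10.2 CPM in cold mice and 175 ± 11.3 CPM in ctrl mice (SD, n = 6 each; adjusted p = 0.308). Of all 23 synthetase genes not called, 17 had a fold change within 1.1-fold either way. A value short of the threshold does not show that a gene was the same in both groups.

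Single transcripts carried the same calls in most genes. The 35 genes have 286 annotated transcripts, of which 99 were tested, 11 were higher and 0 lower, beside 6.21% higher, 4.06% lower and 10.3% either way among all transcripts. Besides the 3 of Cars2, these were the full-length protein-coding transcripts Eprs-201, Sars2-201, Mars2-201, Yars2-201, Yars-201, Dars-201, Iars-201 and Wars-201. Sars2-201 had a log2 fold change of 0.61 ± 0.10 (adjusted p = 1.59e-03) and Yars2-201 one of 0.52 ± 0.09 (adjusted p = 2.29e-03). For Nars, Fars2 and Vars2 no single transcript passed. On simulated counts the transcript test found 52.1% of 4-fold, 19.3% of 2-fold and 4.17% of 1.5-fold changes, so small changes of single transcripts could be missed.

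For 15 pairs a cytosolic and a mitochondrial gene serve the same amino acid, counting Eprs with Ears2 and with Pars2 and taking Farsa for the cytosolic phenylalanine enzyme. Both genes were called in 1 pair, Yars and Yars2 for tyrosine, and both were higher. In 9 pairs 1 gene was called, and in the others neither was. Serine had a call in the mitochondrial gene (Sars2 0.58, Sars 0.17 on the log2 fold change scale), and tryptophan in the cytosolic one (Wars 0.29, Wars2 0.16). The differences within pairs were not tested.

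Levels of different genes were set side by side as CPM per kilobase of transcript, leaving out Lars2. The order in ctrl mice ran from Gars at 62.9 ± 4.79 and Sars at 42.02 ± 2.77 down to Wars2 at 2.53 ± 0.291 and Mars2 at 0.792 ± 0.0583 CPM per kb (SD, n = 6 each). The annotated Mars2 transcript is 11294 bases long, which lowers its value per length. Cars2 was at 107 ± 20.5 CPM per kb in cold mice and 25.3 ± 2.75 in ctrl mice. That made it the highest of the 34 genes in cold mice, whereas in ctrl mice it lay beside Nars at 26.6 ± 2.21 and Hars at 23.6 ± 0.877 and differed from each by less than its own SD. The level counts all Cars2 transcripts. Those annotated as protein-coding held 32.6% of Cars2 reads in cold mice and 63.3% in ctrl mice. In the middle of the ctrl order Dars, Aars, Eprs, Aars2, Yars and Farsb lay between 16.1 and 17.8 CPM per kb. Neighbours in that order differed by less than the SD of either gene, except Eprs and Aars2, whose difference exceeded the SD of Aars2 (17.7 ± 1.26 and 16.7 ± 0.862). Of 14 pairs, leaving out leucine, the cytosolic gene was the higher one per kb in 8 pairs in cold mice and in 8 pairs in ctrl mice. Over all transcripts, the ratio of Cars to Cars2 was 0.0582 in cold mice and 0.257 in ctrl mice. That of Wars to Wars2 was 9.81 in cold mice and 8.78 in ctrl mice.

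**Figure D5:**
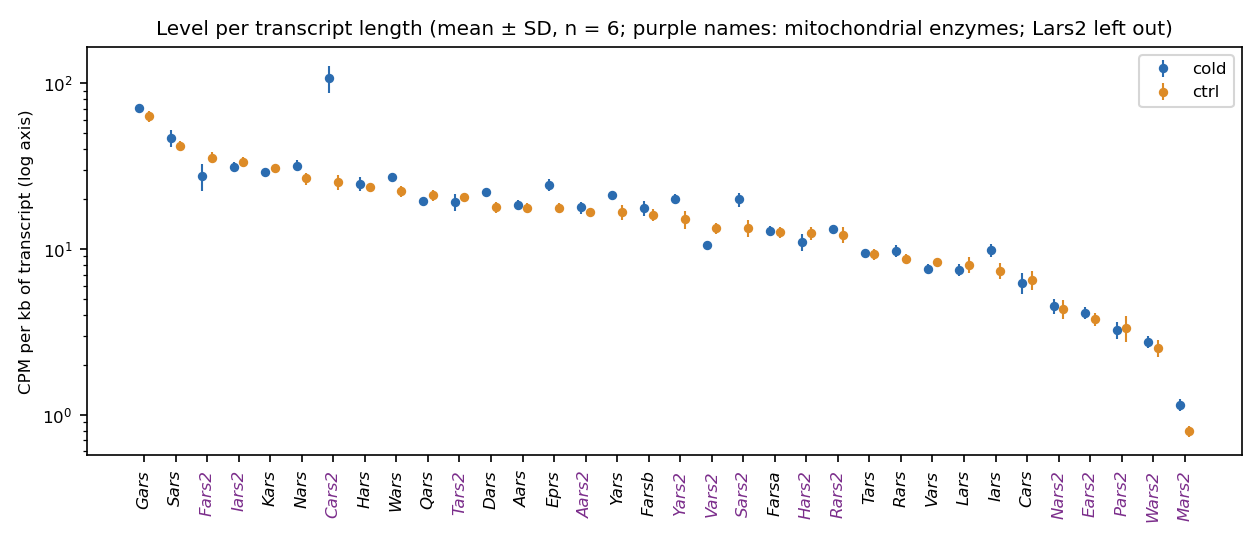
CPM per kilobase of transcript (y axis, log scale; mean ± SD, n = 6 each, cold left of ctrl) for 34 synthetase genes ordered by their ctrl level, without Lars2. With all transcripts counted, Cars2 leaves the order in cold mice, at 107 CPM per kb against 25.3 in ctrl mice. Gars is the highest of the others, at 70.6 CPM per kb in cold mice and 62.9 in ctrl mice.

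Genes that work with the synthetases were counted from lists compiled with earlier results of these data known. Beside these counts, 16.2% of all genes tested were called higher, 15.4% lower and 31.6% either way. Of 10 mitochondrial translation factors, 4 were higher and 0 lower, with a median log2 fold change of 0.21. Gfm1, the elongation factor that moves the mitochondrial ribosome along its mRNA, was at 282 ± 15.4 CPM in cold mice and 167 ± 15.7 CPM in ctrl mice (log2 fold change 0.76 ± 0.08, adjusted p = 2.45e-06). The initiation factor gene Mtif2 (0.44 ± 0.07), the ribosome recycling factor gene Mrrf (0.35 ± 0.08) and Tufm, which brings charged tRNAs to the ribosome (0.20 ± 0.07), were higher too. Of 17 genes for processing and modifying mitochondrial tRNAs, 5 were higher and 3 lower. Among them the modifying enzyme genes Nsun3 (0.69 ± 0.10) and Cdk5rap1 (0.96 ± 0.17) were higher, and Trit1 (-0.42 ± 0.08), which modifies the base next to the anticodon, and Hsd17b10 (-0.54 ± 0.13), a subunit of mitochondrial RNase P, were lower.

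Of 6 genes for tRNA-dependent amino acid conversion and formylation, Qrsl1, a subunit of the amidotransferase that makes mitochondrial glutaminyl-tRNA, was higher at 20.9 ± 2.23 CPM in cold mice and 14.3 ± 1.05 CPM in ctrl mice (adjusted p = 1.25e-04). That route stands in for a mitochondrial glutamine synthetase, and Ears2, which charges the tRNA with glutamate first, had a log2 fold change of 0.11 ± 0.09 and did not pass. Of 5 deacylase and peptidyl-tRNA hydrolase genes 1 was lower, Ptrhd1 (-0.65 ± 0.12, adjusted p = 5.00e-04). The shares called in these 2 lists, 16.7% and 20%, were below the 31.6% of all genes tested.

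Of the 28 genes listed for the integrated stress response and amino acid supply, 24 were tested, 8 were higher and 3 lower, with a median log2 fold change of 0.24. The 45.8% called stood beside 31.6% of all genes tested. Gdf15, a secreted stress signal, was at 4.41 ± 2.52 CPM in cold mice and 0.199 ± 0.0938 CPM in ctrl mice (adjusted p = 2.13e-06), and Slc3a2, the heavy chain of several amino acid carriers, at 135 ± 12.0 CPM in cold mice and 56.1 ± 11.3 CPM in ctrl mice (adjusted p = 5.40e-07). Cth, an enzyme of cysteine synthesis, was at 4.28 ± 1.60 CPM in cold mice and 1.30 ± 0.211 CPM in ctrl mice (adjusted p = 4.44e-05). Eif4ebp1, a translation repressor, was lower, at 77.7 ± 11.3 CPM in cold mice and 149 ± 19.6 CPM in ctrl mice (adjusted p = 6.55e-06). Asns, the asparagine synthetase, was lower as well (log2 fold change -0.33 ± 0.10, adjusted p = 0.0154), while Atf4 was called higher (0.27 ± 0.10, adjusted p = 0.0466). Asns and Atf4 were named after their values were seen.

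Promoter sequence was described for the 26 synthetase genes with an entry among RefSeq promoters on GRCm38.p6, which span 250 bases before to 50 after each start, 27 promoters in all. The C/EBP-ATF response element, searched as TGATGNAA on both strands, was found in 5 of them (18.5%), against 3.97% of all 32851 promoters. The stretches around it are shown for 4 genes, because ATF4 is known to bind this element, with the match in capitals and each read along its gene.
Yars, chr4:129189895-129189924, plus strand: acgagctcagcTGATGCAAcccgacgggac
Iars, chr13:49682126-49682155, plus strand: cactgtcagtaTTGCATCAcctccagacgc
Tars, chr15:11399655-11399684, minus strand: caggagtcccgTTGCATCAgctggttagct
Gars, chr6:55037960-55037989, plus strand: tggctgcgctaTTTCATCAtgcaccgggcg

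The 5 genes with the element were Yars and Iars, higher in the cold, and Aars, Gars and Tars, not called. The NRF1 motif, searched by its consensus on both strands, was in the promoters of Farsb, Iars2, Kars, Mars2 and Tars (18.5%, against 4.60% of all promoters), and of these Mars2 was called. The E-box CACGTG was in those of Aars, Ears2, Farsb, Iars and Tars (18.5%, against 7.15%), and Iars was called. The motif TCAAGGTCA of the estrogen-related receptors was in 0 of 27 promoters, against 0.423% of all promoters. A match or its lack describes letters in this window and says nothing of binding.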

How the data were processed

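Per the labels' protocols, poly(A) RNA of brown fat went into strand-specific libraries with paired reads of 50 nt. Salmon, cutadapt, bcl2fastq and GRCm38 stand in the submitters' processing notes, without versions or settings. The deposited files give estimated counts per transcript (not normalized) and TPM, per the file headers. TPM was not used for levels, because in ctrl 2 transcripts whose effective length was below 50 nt took up 55.2% of it, against 2.36% to 8.41% elsewhere. Of 140658 transcripts 140137 matched GENCODE M21 by identifier without version, and the other 521 held at most 0.152% of reads. Estimated counts, not whole in 29.5% to 32.6% of values, were summed per gene and rounded.

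Genes and transcripts kept by edgeR's filterByExpr (minimum count 10) were scaled by TMM and tested with edgeR's robust quasi-likelihood test, two-sided, Benjamini-Hochberg adjusted over all features tested, threshold 0.05. CPM use the TMM library size of the gene or transcript fit, so transcript and gene CPM differ slightly in scale. SE is the log2 fold change over the root of F. Usage was tested with diffSpliceDGE in genes with at least 2 transcripts kept. Pearson and Spearman correlations used 100000 permutations, and all orders within groups. The biological coefficient of variation was 20.6%. Every mouse has its own number in the labels, so p-values measure the spread between mice. No library was a copy of another (least chi-square per degree of freedom within a group 13.8 over 12750 genes).

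The synthetase genes, gene lists and tests were chosen with earlier results of these data known. All 35 synthetase genes are named, with ranges and tests for those called and for Cars2 and Lars2, and up to 4 called genes of each other list by smallest p. A few items that these rules name are not reported here. Methods were tested on simulated data. Software was DESeq2 1.42.0, limma 3.58.1 and edgeR 4.0.16 in R 4.3.3, and SciPy 1.17.1, NumPy 2.4.6, matplotlib 3.10.9 and pandas 2.3.3 in Python 3.11.15.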

Additional observations from a re-analysis of the deposited data

Results flagged for a closer look

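In 10 of 78 sets of 6 values (35 genes and 4 transcripts in 2 groups) 1 mouse stood outside the other 5 by Dixon's test, where chance gives about 1 in 20. In ctrl 2, Lars2 was at 17386 CPM (other ctrl mice 313 to 722 CPM) and Lars2-209 at 17050 CPM (others 218 to 621 CPM). Cars2-205 was at 16.3 CPM in ctrl 6, where the other ctrl mice had 1.98 to 6.47 CPM. Cold 4, the deepest library, stood above the other cold mice for Hars at 58.8 CPM (others 45.6 to 49.1 CPM), for Qars at 45.5 CPM (others 41.9 to 42.2 CPM) and for Fars2 at 57.1 CPM (others 40.8 to 44.8 CPM). Kars was low in cold 11 at 52.9 CPM (other cold mice 59.2 to 62.4 CPM) and in ctrl 5 at 57.3 CPM (other ctrl mice 62.1 to 64.8 CPM). Rars was high in ctrl 6 at 20.5 CPM (other ctrl mice 17.4 to 18.2 CPM), and Mars2 was low in ctrl 9 at 7.70 CPM (other ctrl mice 8.94 to 9.63 CPM).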

How the results depend on the processing

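Of 805 values of single synthetase genes under 23 alternatives, 771 kept their direction and side of the threshold, and none of the 12 called genes changed direction. Library totals as scaling gave 1409 lower genes against 2134, moved the share of higher among called genes to 67.3% against 51.3%, and left 13 synthetase genes higher (with Gars, Rars and Sars) and 1 lower. Under it Lars (0.0232), Kars (0.0201) and Pars2 (0.0728) turned positive. Protein-coding transcripts alone left 9 synthetase genes higher and 1 lower, and turned Lars (0.00243), Qars (0.209), Vars (0.00501) and Lars2 (0.0819) positive. Near-zero log2 fold changes also turned for Pars2 with limma-voom (0.000414), Farsa with the stricter filter (-0.0133) and with mitochondrial and rRNA-derived genes removed (-0.000827), and Cars with an effective length offset (-0.0856). Lars2 without Lars2-209 was at 0.0979. The number of genes with changed usage was 89, against 14 by Simes, 197 by limma's diffSplice and 165 with the stricter filter. The cause of these moves was not tested.

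With 1 mouse left out the synthetase counts were 10 to 11 higher and 2 lower, all genes 2023 to 2605 higher and 1836 to 2481 lower, and transcripts 1459 to 2088 higher and 951 to 1553 lower. Usage genes were 62 to 211, the most without cold 4. The adjusted p of Cars2 usage was 6.13e-10 to 1.68e-05. Log2 fold changes that crossed 0 were those of Farsa (-0.0336 to 0.0323), Cars (-0.0261 to 0.0619), Nars2 (-0.00538 to 0.113), Pars2 (-0.0799 to 0.0477), Lars2 (-2.72 to 0.418) and Lars2-209 (-3.01 to 0.489). The high ends of Lars2 and Lars2-209 were those without ctrl 2. Gars passed with DESeq2, without cold 4 and without ctrl 6. Sars passed with a covariate that split the mice into numbers up to 7 and numbers from 9. The labels do not name that split as a batch. No paired analysis was possible because no mouse number occurs in both groups. What depth adds to the error of single genes was not tested.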
